A study of Mus musculus with 12 samples.

Results

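The genes described here encode the respiratory chain and the ATP synthase of the mouse, and they come from 2 genomes. They were chosen by name and position. All 13 protein-coding genes of the mitochondrial chromosome (MT) were taken, with every protein-coding gene elsewhere whose name begins with Ndufa, Ndufb, Ndufc, Ndufs or Ndufv plus a digit, Uqcr, Cox4 to Cox8 or Atp5, or equals Sdha, Sdhb, Sdhc or Sdhd. This gave 98 of 25749 genes, of which 13 were MT-encoded and 85 nuclear. The MT-encoded genes comprised 7 of complex I, 1 of complex III, 3 of complex IV and 2 of complex V. The nuclear genes comprised 37 of complex I, 4 of complex II, 8 of complex III, 18 of complex IV and 18 of complex V. Complexes were assigned by the start of the gene name alone, so Ndufa4 and Ndufa4l2 were counted in complex I whatever complex their proteins join.

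The study profiled bulk RNA of brain tissue from 12 male B6 mice aged 13 weeks, in 3 groups of 4. One group was uninjured, a second had a cerebrovascular injury, and the last had the injury and received continuous αLFA1/VLA4, that is, antibodies against 2 leukocyte integrins (called the antibody group here). Each mouse gave 1 library, made from 500 ng of total RNA of a cube with edges of 3 mm with a stranded total RNA kit, and the injured tissue was taken on day 20 after saline perfusion. The labels do not say how the uninjured cube was placed. No group of injured mice with a control antibody was analysed here, so the antibody group differs from the injured group in the whole treatment.

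The respiratory chain passes electrons from NADH and succinate through complexes I to IV to oxygen and pumps protons across the inner mitochondrial membrane, and complex V, the ATP synthase, uses the proton gradient to make ATP. The mitochondrial genome is transcribed inside the organelle as long precursor RNAs from both strands, which are then processed into single mRNAs, whereas the nuclear subunits are transcribed in the nucleus and imported as proteins. Complex II is made of nuclear subunits alone. In brain much of this ATP serves ion pumping by neurons.

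The stretches below show 3 of the MT-encoded genes that are described in the results, among them the gene of lowest G and C content, which is also the shortest and shares bases with its neighbour. They are from the GRCm38 reference (GENCODE M21 transcripts), plus strand, 5′ to 3′. The first is the whole of mt-Atp8 at chrMT:7766-7969, 204 bases with 31.9% G and C, and the capitals mark the 43 bases it shares with mt-Atp6. The second is the first 204 bases of mt-Nd3 at chrMT:9459-9662, with 33.8% G and C, and the last is the first 204 bases of mt-Co1 at chrMT:5328-5531, with 37.8%.
mt-Atp8: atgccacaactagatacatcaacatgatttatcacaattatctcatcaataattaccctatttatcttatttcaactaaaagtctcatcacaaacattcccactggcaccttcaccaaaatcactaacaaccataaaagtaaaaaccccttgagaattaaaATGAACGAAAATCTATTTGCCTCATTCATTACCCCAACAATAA
mt-Nd3: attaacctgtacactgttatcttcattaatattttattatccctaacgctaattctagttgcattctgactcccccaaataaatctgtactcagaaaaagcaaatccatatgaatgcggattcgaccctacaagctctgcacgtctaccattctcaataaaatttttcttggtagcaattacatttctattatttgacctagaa
mt-Co1: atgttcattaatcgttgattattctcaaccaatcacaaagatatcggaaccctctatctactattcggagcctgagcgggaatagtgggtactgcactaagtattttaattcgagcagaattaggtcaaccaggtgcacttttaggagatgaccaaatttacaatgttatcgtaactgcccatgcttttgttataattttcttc
A further 3 pairs of MT-encoded genes share bases: mt-Nd4l and mt-Nd4 share 7, mt-Atp6 and mt-Co3 share 1, and mt-Nd5 and mt-Nd6, which lie on opposite strands, share 14. Whether the counting used strand is not given in the sources used here, so reads across mt-Nd6 from the opposite strand cannot be told apart from its own.

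The libraries held 13330379 to 16121577 exon reads, and the antibody group had the fewest (13330379 to 13917157). No 2 libraries were near-identical. Of the 98 genes, 95 passed the filter on low counts, namely all 13 MT-encoded and 82 nuclear genes, and Cox7b2, Cox8c and Atp5o_1 did not. Neuron, astrocyte and oligodendrocyte markers were abundant in all 12 libraries, and none of their listed markers was at 0. Of the nuclear genes, 9 had under 80% uniquely assigned reads, among them Cox4i1, Cox5b and Ndufa13, and their values are uncertain, as are those of the 38 nuclear genes that overlap another annotated gene. Levels are given as CPM, reads scaled to the normalised library size, where a gene is compared between libraries. TPM, which also account for transcript length, are given where single genes are ranked against each other.

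MT-encoded mRNA made up a smaller share of the reads in injured than in uninjured mice, while the shares of nuclear respiratory chain mRNA overlapped. The 13 MT-encoded genes took 11.7, 11.6, 12.01 and 10.3% of the exon reads in the uninjured libraries, 7.92, 7.99, 6.71 and 4.75% in the injured libraries, and 11.01, 10.5, 9.80 and 8.83% in the antibody libraries. The uninjured and injured ranges did not overlap, and neither did the injured and antibody ranges. The 85 nuclear genes together took 1.16% ± 0.122 (SD, n = 4) of the reads in the uninjured, 1.36% ± 0.116 (SD, n = 4) in the injured and 1.41% ± 0.292 (SD, n = 4) in the antibody group, and these ranges overlapped. MT-encoded reads therefore outnumbered nuclear reads 9.89 ± 1.26 to 1 (SD, n = 4) in uninjured, 5.07 ± 1.30 to 1 (SD, n = 4) in injured and 7.39 ± 1.73 to 1 (SD, n = 4) in antibody libraries. The ratio needs no scaling of libraries to each other. It was 11.7, 9.71, 9.30 and 8.86 in the uninjured libraries, 6.56, 5.38, 4.89 and 3.43 in the injured libraries, and 7.67, 7.92, 9.02 and 4.94 in the antibody libraries. Every injured library was below every uninjured library, while antibody replicate 4 fell inside the injured range and antibody replicate 3 inside the uninjured range. As a score over chosen genes the ratio is given without a test.

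**Figure D1:**
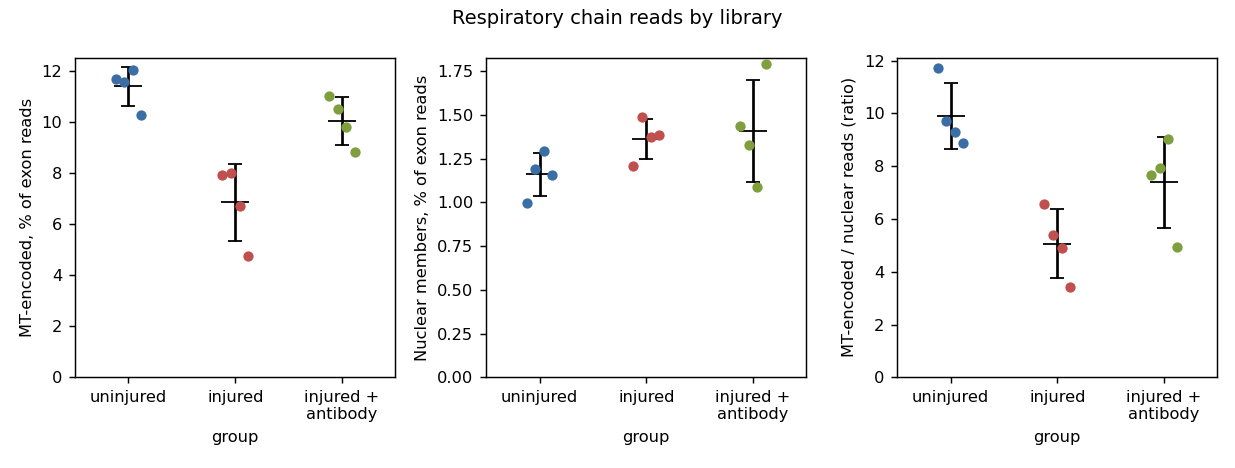
Share of exon reads (%) in MT-encoded genes and in nuclear respiratory chain genes, and the ratio of the 2 read sums, by group. Points are libraries, horizontal marks are means and bars are SD (n = 4). The injured libraries sit between 4.75 and 7.99% for the MT-encoded genes, all below the uninjured libraries, while the nuclear shares overlap.

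The drop of the ratio was present in each complex that has both kinds of gene. For complex I the ratio was 8.29 ± 1.86 (SD, n = 4) in uninjured, 3.34 ± 1.28 (SD, n = 4) in injured and 5.76 ± 1.99 (SD, n = 4) in antibody libraries. For complex III, where mt-Cytb is the only MT-encoded gene, it was 10.7 ± 1.33, 5.71 ± 0.966 and 7.20 ± 2.003 in the same order (SD, n = 4). For complex IV it was 26.9 ± 2.48, 15.5 ± 3.41 and 20.4 ± 4.64, and for complex V 3.18 ± 0.623, 1.18 ± 0.564 and 2.46 ± 0.619 (SD, n = 4). In complex V the injured libraries ranged from 0.533 to 1.87, so that in injured replicate 4 the nuclear reads outnumbered the MT-encoded reads. Within each of the 4 complexes the uninjured and injured ranges did not overlap.

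Injured mice were compared with uninjured mice gene by gene. In edgeR's quasi-likelihood test with Benjamini-Hochberg adjustment over 14771 genes, 12 of the 13 MT-encoded genes fell after injury, against 11% of all tested genes called lower and 23% called in either direction. The median log2 fold change of the 13 was -1.02, beside 0.03 for all tested genes, and the 13 values ran from -2.27 to -0.58. For all 13 genes the 4 injured libraries were below the 4 uninjured libraries with no overlap, which was so for 12.9% of all tested genes. In bulk tissue fewer cells of a type and less RNA per cell cannot be told apart. By complex, the 2 genes of complex V had a median log2 fold change of -1.74, the 7 of complex I a median of -1.08, mt-Cytb -0.73 and the 3 of complex IV a median of -0.66.

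mt-Atp8, which encodes a small membrane subunit of the ATP synthase, had the lowest value of the 13. Its level was 2625, 1303, 1136 and 1029 CPM in the uninjured libraries, 710, 325, 218 and 13.1 CPM in the injured libraries, and 1058, 1049, 1630 and 438 CPM in the antibody libraries. Uninjured replicate 1 stood above and injured replicate 4 far below the other libraries, with 39041 and 222 exon reads, and the highest of the 12 libraries had 199.8 times the CPM of the lowest. The log2 fold change in injured mice was -2.27 (SE 0.753, adjusted p = 0.0454 by edgeR's quasi-likelihood test). The call was lost without any 1 of uninjured replicates 1, 2, 3 or 4, injured replicates 2 or 3, or antibody replicates 1 or 2 (adjusted p from 0.0515 to 0.128), with log2 fold changes from -2.42 to -1.87. It was -3.06 without injured replicate 1 (adjusted p = 0.0176) and -1.88 without injured replicate 4 (adjusted p = 0.0397, edgeR). The deposited tables also count reads that lie in a gene but not in its exon. For mt-Atp8, which has a single exon, their share of all its reads was 24.1% ± 4.82 for uninjured, 47.0% ± 21.3 for injured and 20.2% ± 2.34 for antibody libraries (SD, n = 4), with 77.0% for injured replicate 4. With these reads included, mt-Atp8 had 966 reads in injured replicate 4 and 47207 in uninjured replicate 1, and the group means differed by -1.94 on the log2 scale instead of -2.20, both scaled to the exon reads of the library.

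mt-Atp6, the proton channel subunit of the ATP synthase, overlaps mt-Atp8 and fell by 1.21 on the log2 scale (SE 0.244, adjusted p = 0.0069, edgeR). Its level was 13112, 12400, 12877 and 10202 CPM in uninjured, 7343, 6588, 4552 and 2495 CPM in injured, and 12054, 11030, 10361 and 9229 CPM in antibody libraries. The lowest uninjured library was thus above the highest injured library, and all 4 antibody libraries were above all 4 injured libraries.

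The 7 MT-encoded genes of complex I form part of its membrane arm, which pumps protons. mt-Nd2 was at 5819, 4878, 4559 and 4274 CPM in uninjured, 3045, 2042, 1664 and 743 CPM in injured, and 4360, 4417, 4983 and 2996 CPM in antibody libraries, and fell by 1.38 on the log2 scale (SE 0.307, adjusted p = 0.0105, edgeR). mt-Nd1, mt-Nd4 and mt-Nd5 fell by 1.02, 1.08 and 1.15, and mt-Nd3 by 0.96 (adjusted p from 0.00453 to 0.00876, edgeR). mt-Nd4l fell by 1.35 (SE 0.34, adjusted p = 0.0169), from 1081, 643, 606 and 563 CPM to 410, 257, 232 and 238 CPM, and its call was lost without uninjured replicate 1 (-1.09, adjusted p = 0.0574, edgeR) or injured replicate 4 (-1.29, adjusted p = 0.0595, edgeR). mt-Nd6 is the only protein-coding gene of the other strand, and was the 1 gene of the 13 that did not pass. Its level was 61.2, 69.5, 61.5 and 64.9 CPM in uninjured, 44.1, 54.1, 43.7 and 16.1 CPM in injured, and 77.7, 77.2, 87.1 and 83.1 CPM in antibody libraries. The uninjured and injured libraries of mt-Nd6 did not overlap, and its log2 fold change of -0.70 (SE 0.244) had an adjusted p of 0.0527 by edgeR's quasi-likelihood test. It passed without injured replicate 2 (-0.89, adjusted p = 0.0396), injured replicate 4 (-0.46, adjusted p = 0.0108), antibody replicate 3 (-0.73, adjusted p = 0.0401) or antibody replicate 4 (-0.70, adjusted p = 0.045), by the same edgeR test. Over all alternatives its adjusted p ran from 0.0108 to 0.306.

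The 3 MT-encoded subunits of complex IV, the complex that reduces oxygen, had a median log2 fold change of -0.66. mt-Co1 was at 34833, 35225, 36853 and 31512 CPM in uninjured, 25116, 26492, 23156 and 17933 CPM in injured, and 31981, 30779, 28389 and 25607 CPM in antibody libraries. It fell by 0.58 (SE 0.109, adjusted p = 0.00511, edgeR), and mt-Co2 and mt-Co3 fell by 0.66 and 0.72 (adjusted p = 0.0125 and 0.0119, edgeR). mt-Cytb, the cytochrome b of complex III, fell by 0.73 (SE 0.136, adjusted p = 0.00498, edgeR). mt-Co1 had the fold change nearest to 0 of the 13, and its share of all MT-encoded exon reads was 28.4, 29.6, 29.7 and 30.2% in uninjured and 32.1, 33.4, 35.5 and 39.6% in injured libraries, with no overlap, and 29.1, 29.6, 29.3 and 29.0% in antibody libraries.

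**Figure D2:**
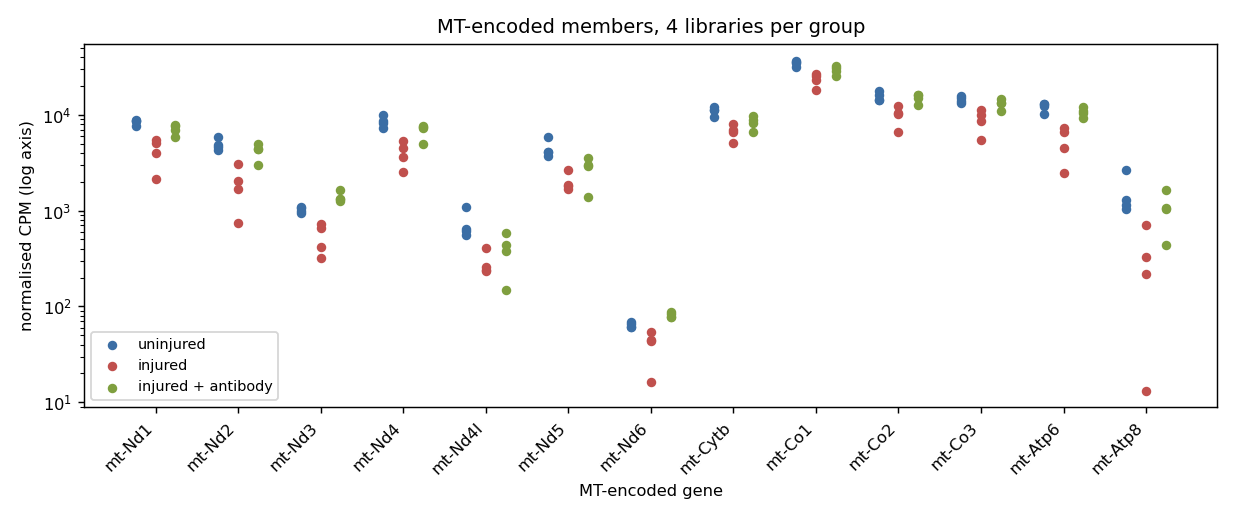
Level of the 13 MT-encoded genes in normalised CPM (log axis) in the 12 libraries, grouped by complex from left (complex I) to right (complex V). Each point is 1 library, and for every gene the 4 injured libraries lie below the 4 uninjured ones, with mt-Atp8 spread most widely.

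The order of the MT-encoded levels, on the TPM scale, was headed in every group by mt-Co1 and mt-Co2. In uninjured libraries mt-Co2 was at 54678 TPM and mt-Co1 at 53526 TPM, with SDs of 4194 and 1785 TPM (n = 4), so the 2 did not differ beyond their spread. mt-Co3 (44126 TPM) and mt-Atp6 (42604 TPM) followed, also within their spread, then mt-Cytb (23044 TPM), mt-Nd1 (21082 TPM), mt-Atp8 (17889 TPM), mt-Nd4 (14703 TPM), mt-Nd2 (11256 TPM), mt-Nd3 (7048 TPM), mt-Nd4l (5834 TPM) and mt-Nd5 (5824 TPM). mt-Nd6 was last in all 3 groups, at 297 ± 21.6 TPM in uninjured, 200.5 ± 76.2 TPM in injured and 378 ± 39.1 TPM in antibody libraries (SD, n = 4). mt-Atp8 was in place 7 of 13 in uninjured, 9 in injured and 7 in antibody libraries. The most abundant nuclear gene of the set in uninjured libraries was Atp5b, the catalytic beta subunit of complex V, at 1546 ± 61.5 TPM (SD, n = 4), below 12 of the 13 MT-encoded genes.

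Of the 82 nuclear genes tested after injury, 1 rose and 1 fell (2.44%, against 23% of all tested genes in either direction). The number called higher was 19 with only the injured and uninjured groups in the fit (15.5% of all tested genes higher), 10 with library size alone (21.4% higher and 6.74% lower, with the median of all tested genes at 0.11), and 10 with a trend of G and C content and length removed (6.61% higher), a step described further on. In the fit of all groups the median log2 fold change was 0.16, beside 0.03 for all tested genes and -1.02 for the MT-encoded genes. The values ran from -0.38 to 0.52, and 67 of 82 were above 0. By complex, the medians were 0.18 for the 37 genes of complex I, 0.04 for the 4 of complex II, 0.30 for the 8 of complex III, 0.12 for the 16 tested of complex IV and 0.14 for the 17 tested of complex V. The counts of calls are described without a test of the difference from all genes.

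Ndufs7, an iron-sulfur subunit of complex I next to the ubiquinone site, was the gene that rose. Its level was 58.2, 74.0, 78.1 and 72.2 CPM in uninjured, 87.6, 112, 104 and 100.1 CPM in injured, and 90.9, 81.2, 66.9 and 129 CPM in antibody libraries. The injured libraries were all above the uninjured ones, and the log2 fold change was 0.52 (SE 0.164, adjusted p = 0.039, edgeR). The call of Ndufs7 was lost without any 1 of uninjured replicates 1, 2 or 4, injured replicates 2, 3 or 4, or antibody replicates 1 or 2 (adjusted p from 0.0539 to 0.116, edgeR). Atp5s, known as factor B of the ATP synthase, fell by 0.38 (SE 0.0865, adjusted p = 0.0111, edgeR), from 16.6, 17.1, 16.9 and 17.5 CPM to 13.6, 14.8, 12.8 and 11.1 CPM, and stood at 17.9, 18.3, 16.3 and 18.01 CPM in the antibody libraries. A further 9 nuclear genes had no overlap between the injured and uninjured libraries but did not pass, of which 8 were higher (Ndufa2, Ndufa7, Ndufb7, Ndufv1, Uqcrc1, Uqcrq, Atp5d and Atp5e, adjusted p from 0.0675 to 0.176) and 1, Ndufs1, lower (adjusted p = 0.142, edgeR). Of all tested genes, 17.4% were higher and 12.9% lower without overlap.

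Antibody libraries enter the comparison of injured with uninjured mice only through the filter, the normalisation and the shared estimate of the spread, yet the count of nuclear genes moved with them. Without antibody replicate 4, 14 nuclear genes were called higher in injured than in uninjured mice, beside 16.3% of all tested genes. Without antibody replicate 3, 7 were, beside 13.5%. Antibody replicate 4 held the highest level of 72 of the 83 nuclear genes with reads in every library, and uninjured replicate 1 the lowest of 48. The ratio of the highest to the lowest library had a median of 1.98 over these 83 genes and of 4.24 over the 13 MT-encoded genes.

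**Figure D3:**
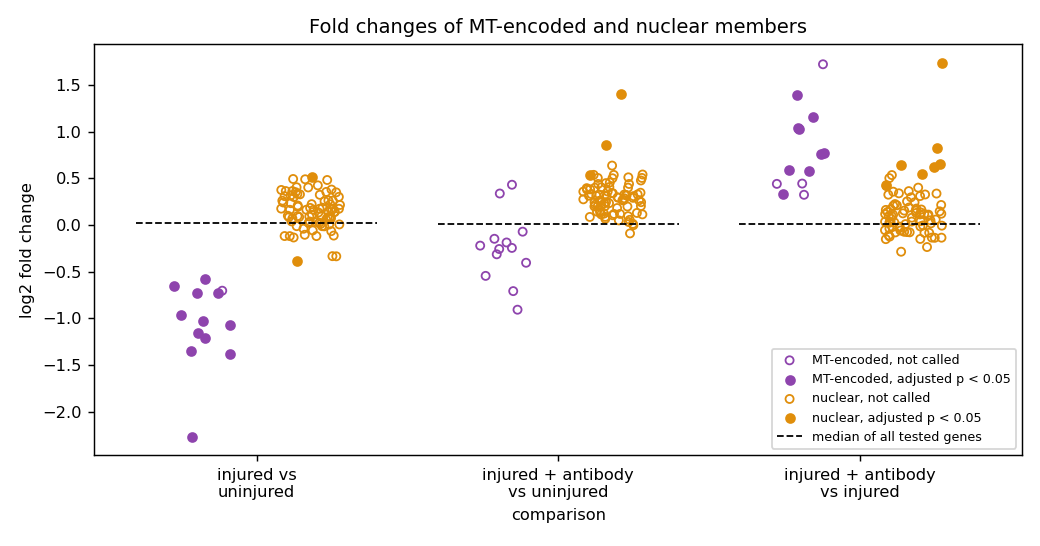
Log2 fold change of each tested MT-encoded gene (13) and nuclear gene (82) in the 3 comparisons; filled points passed an adjusted p of 0.05, and the dashed line is the median of all 14771 tested genes. MT-encoded genes lie below nuclear genes after injury, and 12 of 13 are filled.

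Complex II, with no MT-encoded subunit, gave no call in any of the 3 comparisons as tested. Sdha, the flavoprotein that oxidises succinate, was at 421, 424, 429 and 438 CPM in uninjured, 418, 426, 429 and 424 CPM in injured, and 443, 442, 428 and 466 CPM in antibody libraries. The highest of the 12 libraries had 1.115 times the CPM of the lowest, the smallest such ratio among the nuclear genes. Its log2 fold changes were -0.01 (SE 0.047) for injured against uninjured, 0.06 (SE 0.0471) for antibody against uninjured and 0.07 (SE 0.047) for antibody against injured mice, and none passed (adjusted p from 0.327 to 0.865, edgeR). Sdhb, the iron-sulfur subunit, and Sdhc and Sdhd, the membrane anchors, did not pass in any comparison either, with log2 fold changes between -0.04 and 0.16. With the trend of G and C content and length removed, Sdhb (-0.14, adjusted p = 0.0224) and Sdhd (-0.13, adjusted p = 0.0446, edgeR) were called lower in antibody than in uninjured mice.

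Antibody and injured mice, which both carry the injury, were compared next, and this comparison shares its injured libraries with the one above. In it 9 of the 13 MT-encoded genes rose, against 10.9% of all tested genes called higher and 21.6% called in either direction, with a median log2 fold change of 0.76 beside 0.01 for all tested genes. With the trend of G and C content and length removed, none of the 13 was called and the median was 0.12. mt-Nd3 had the smallest adjusted p: its level was 719, 651, 417 and 317 CPM in injured and 1316, 1319, 1249 and 1647 CPM in antibody libraries, with no overlap, and it rose by 1.39 on the log2 scale (SE 0.203, adjusted p = 0.000683, edgeR). In the uninjured libraries mt-Nd3 was at 1089, 1075, 995 and 942 CPM, below all 4 antibody libraries. mt-Nd2, mt-Nd6 and mt-Atp6 rose by 1.16, 1.04 and 1.02 (adjusted p from 0.00989 to 0.0172, edgeR), and mt-Nd1 and mt-Nd4 by 0.77 and 0.76 (adjusted p = 0.0204 and 0.0151, edgeR). In complex IV mt-Co2 and mt-Co3 rose by 0.59 and 0.58 and mt-Co1 by 0.33 (adjusted p from 0.0166 to 0.0435, edgeR). The 4 genes that did not pass were mt-Nd4l (0.44, SE 0.336), mt-Nd5 (0.44, SE 0.241), mt-Cytb (0.32, SE 0.135) and mt-Atp8 (1.72, SE 0.74), with adjusted p from 0.1035 to 0.375 by edgeR. Antibody libraries were above injured libraries without overlap for 5 of the 13 genes, as for 10.6% of all tested genes.

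Single libraries decided some of these calls. mt-Atp8 passed without injured replicate 1 (2.52, adjusted p = 0.0363), and mt-Nd4l, mt-Nd5 and mt-Cytb passed without antibody replicate 4 (0.71, 0.66 and 0.42, adjusted p = 0.0491, 0.0128 and 0.0289, edgeR). The calls of mt-Co1, mt-Co3 and mt-Nd1 were lost without injured replicate 3 or antibody replicate 1 or 2 (adjusted p from 0.0518 to 0.116, edgeR), and that of mt-Co1 also without injured replicate 4 (0.24, adjusted p = 0.0783) or any 1 uninjured library (0.33, adjusted p from 0.0514 to 0.0602, edgeR).

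Antibody and uninjured mice share their uninjured libraries with the injury comparison, so their values are given side by side only. None of the 13 MT-encoded genes passed between antibody and uninjured mice, where 9.53% of all tested genes were called (6.3% higher, 3.22% lower) in edgeR's quasi-likelihood test. At an unadjusted p under 0.05 there were 1 higher (mt-Nd3) and 4 lower (mt-Nd4l, mt-Nd5, mt-Cytb and mt-Co1). No share of all tested genes at that p is given here to set beside these counts. DESeq2 called mt-Cytb (-0.42) and mt-Nd5 (-0.72) lower, limma voom called none, and the lack of a call does not show equal levels. The median log2 fold change of the 13 was -0.25, with 11 below 0, against -1.02 for injured mice. With the trend of G and C content and length removed, 9 of the 13 were called lower and the median was -0.485. mt-Nd4l (-0.91, SE 0.337), mt-Nd5 (-0.71, SE 0.242) and mt-Atp8 (-0.55, SE 0.72) had the lowest values, and mt-Nd3 (0.43, SE 0.20) and mt-Nd6 (0.34, SE 0.24) were the 2 above 0 (adjusted p from 0.0844 to 0.632, edgeR). mt-Nd4l and mt-Nd5 were called without antibody replicate 3 (-1.17 and -0.87, adjusted p = 0.024 and 0.0241, edgeR). Without injured replicate 4, mt-Cytb (-0.41, adjusted p = 0.039) was called lower and mt-Nd6 (0.33, adjusted p = 0.0223) higher, by edgeR.

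The MT-encoded fold changes between antibody and injured mice were ordered by base composition. G and C content of the 13 genes ran from 31.9% in mt-Atp8 to 41.1% in mt-Nd4l. Across these 13 genes Pearson's r of the log2 fold change with G and C content was -0.92 and Spearman's rho -0.90. They were 0.51 and 0.35 for injured against uninjured mice, and -0.45 and -0.31 for antibody against uninjured mice. With exon length they were -0.59 and -0.55 for antibody against injured mice. The 13 genes are on 1 molecule and in the same libraries and are not independent, so no p is given. For the 82 nuclear genes rho with G and C content was 0.45 for injured against uninjured mice. It was -0.03 for antibody against uninjured and -0.41 for antibody against injured mice. When a smooth trend of each library's counts with G and C content and exon length over all tested genes was removed before testing, the number of MT-encoded genes called lower in injured than in uninjured mice was 11, the number called higher in antibody than in injured mice was 0, and the number called lower in antibody than in uninjured mice was 9. Of all tested genes, 7.23% were then called lower in the first comparison, 10.9% higher in the second and 7.27% lower in the last. The medians became -0.71, 0.12 and -0.485. After injury mt-Nd4l was no longer called (-1.04, adjusted p = 0.0649, edgeR), and between antibody and injured mice mt-Co1 (-0.0457) and mt-Co2 (-0.0563) turned below 0. The range of G and C content of the 13 genes is shared by 1361 other tested genes, but their median length of 784 bases is below the median of 3521 bases of all tested genes.

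**Figure D4:**
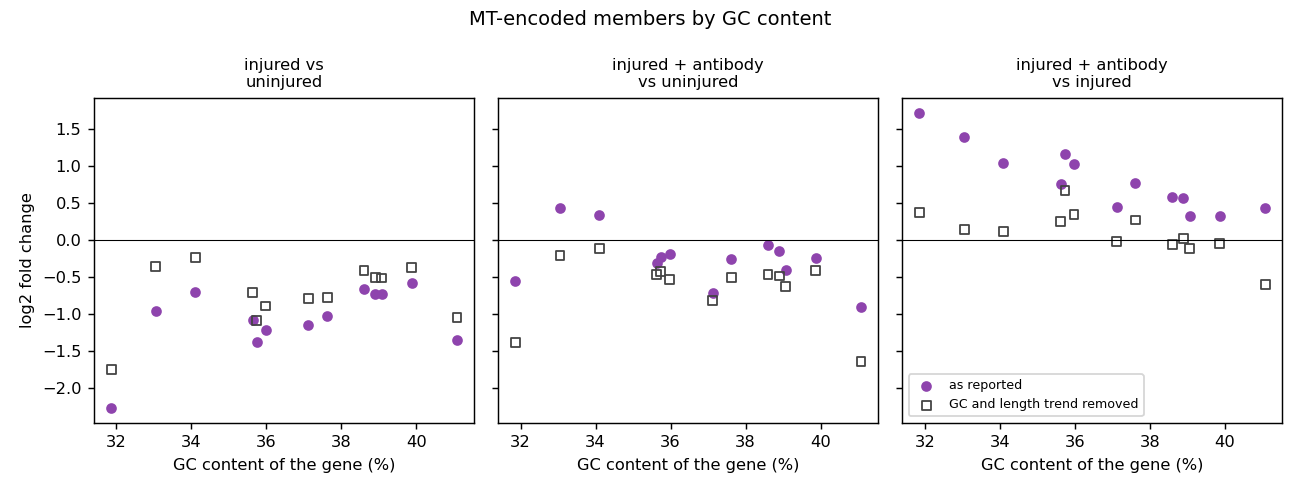
Log2 fold change of the 13 MT-encoded genes against the G and C content of the gene (%) in the 3 comparisons, as tested (filled circles) and after the trend with G and C content and length was removed (open squares). Between antibody and injured mice the filled circles run downward with G and C content, and the open squares lie nearer to 0.

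The same removal acted on the nuclear genes. It gave 10 higher and 5 lower nuclear genes for injured against uninjured mice, 2 higher and 14 lower for antibody against uninjured mice, and 7 higher and 21 lower for antibody against injured mice. The shares of all tested genes were 6.61% higher and 7.23% lower, 10.3% and 7.27%, and 10.9% and 7.14% in the same order. The fall of Atp5s and the rise of Ndufs7 after injury were no longer called (-0.14 and 0.12, adjusted p = 0.128 and 0.103, edgeR). Between antibody and injured mice Atp5s (0.09) and Cox7b (0.22) were no longer called and Uqcrb turned to -0.12. The G and C content of the genes outside MT was averaged with each gene weighted by its reads. This average was 49.8 to 50.3% in uninjured, 50.7 to 51.3% in injured and 49.9 to 50.5% in antibody libraries. It is a value of the annotated genes, not of the read sequences. Its part in the results beyond this removal was not tested.

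Among nuclear genes, 7 rose and none fell in antibody against injured mice, where 10.9% of all tested genes were called higher and 10.7% lower. None fell at an unadjusted p under 0.05 either, nor by DESeq2 or limma voom. At that p 15 were higher, but no share of all tested genes at an unadjusted p is given here to set beside them. On unique reads 1 was called lower, leaving out 1 library 0 to 2, and with the trend of G and C content and length removed 21. With the trend removed 7.14% of all tested genes were called lower. No such share is given here for unique reads or for leaving out 1 library. Against uninjured mice Ndufv2, Cox7a1 and Cox8b rose, beside 6.3% of all tested genes called higher, and both comparisons rest on the same antibody libraries. The median over the 82 nuclear genes was 0.11 against injured and 0.29 against uninjured mice.

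Cox8b and Cox7a1 are the heart and skeletal muscle forms of 2 small complex IV subunits, and each has a widely expressed counterpart. Cox8b was at 0.605, 0.847, 0.872 and 0.537 CPM in uninjured, 0.509, 0.187, 0.723 and 0.828 CPM in injured, and 1.31, 2.06, 1.28 and 3.00 CPM in antibody libraries. All 4 antibody libraries were above the 8 others. It rose by 1.40 on the log2 scale against uninjured (SE 0.362, adjusted p = 0.0278) and by 1.74 against injured mice (SE 0.371, adjusted p = 0.00599, edgeR). Cox8b reached the level of the low-count filter in 2 uninjured, 2 injured and 4 antibody libraries. Against uninjured mice its call was lost with the trend of G and C content and length removed (0.65, adjusted p = 0.167, edgeR), as was that of Cox7a1 (0.31, adjusted p = 0.246, edgeR). The call of Cox8b was also lost without any 1 of uninjured replicates 1, 2 or 4 or antibody replicates 2 or 4 (log2 fold changes from 1.11 to 1.496, adjusted p from 0.0545 to 0.0846, edgeR). Cox7a1 was at 1.34, 1.43, 1.81 and 1.68 CPM in uninjured, 1.46, 1.56, 1.57 and 1.83 CPM in injured, and 3.57, 2.92, 1.996 and 2.93 CPM in antibody libraries, again with no overlap. It rose by 0.86 (SE 0.186, adjusted p = 0.0107) and 0.82 (SE 0.183, adjusted p = 0.00747, edgeR). The widely expressed Cox8a and Cox7a2 were at 276 to 440.2 CPM and 124 to 241 CPM over the 12 libraries, with log2 fold changes from 0.03 to 0.27 in these 2 comparisons, and neither passed. With the trend removed both were called lower against uninjured mice, Cox8a at -0.35 (adjusted p = 0.0016) and Cox7a2 at -0.21 (adjusted p = 0.00997), and Cox7a2 was also called lower against injured mice (-0.17, adjusted p = 0.0344, edgeR). Cox8a was then called lower in injured than in uninjured mice as well (-0.24, adjusted p = 0.0222, edgeR).

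**Figure D5:**
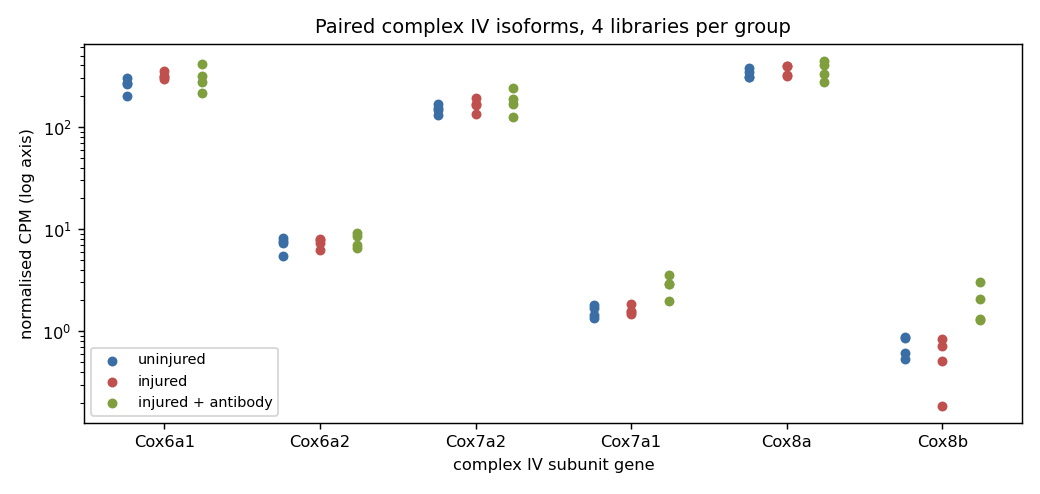
Level in normalised CPM (log axis) of 3 complex IV subunits in their widely expressed form (Cox6a1, Cox7a2, Cox8a) and their heart and skeletal muscle form (Cox6a2, Cox7a1, Cox8b), with 1 point per library. The muscle forms Cox7a1 and Cox8b are higher in the 4 antibody libraries than in the other 8, and Cox6a2 overlaps.

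The remaining tissue-type forms did not pass. Cox6a2, the muscle form of Cox6a1, was at 5.45 to 9.08 CPM over the 12 libraries, with log2 fold changes of 0.02, 0.12 and 0.09 in the order injured against uninjured, antibody against uninjured and antibody against injured. Cox4i2, Cox6b2 and Ndufa4l2 ranged from 1.21 to 4.45 CPM. Cox6b2 was called higher in the antibody group without antibody replicate 3, against injured (0.63, adjusted p = 0.0296) and against uninjured mice (0.78, adjusted p = 0.014, edgeR). Cox7b2 was at 0.301 to 1.201 CPM, and Cox8c had 0 reads in all libraries, which allows up to 0.225 CPM in the shallowest library (3 reads, counting error only). Cox4i1, Cox6a1, Cox6b1 and Ndufa4, the widely expressed counterparts, had log2 fold changes from -0.08 to 0.38 and did not pass, but Ndufa4 was called higher in the antibody group without antibody replicate 3 (0.47 against injured, adjusted p = 0.0217, and 0.51 against uninjured mice, adjusted p = 0.0174, edgeR), as was Cox7a2 against uninjured mice (0.40, adjusted p = 0.0399). With the trend removed Ndufa4 was called higher in injured than in uninjured mice (0.28, adjusted p = 0.0491) and lower in antibody than in injured mice (-0.36, adjusted p = 0.0122, edgeR). Cox6a1 was then called lower in antibody mice against uninjured (-0.22, adjusted p = 0.000687) and injured mice (-0.15, adjusted p = 0.0127), and Cox6b1 lower against uninjured mice (-0.21, adjusted p = 0.025, edgeR).

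Markers of skeletal muscle stood higher in the same libraries. Beside the counts below, 6.3% of all tested genes were called higher in antibody mice against uninjured and 10.9% against injured mice. Of 14 listed muscle markers 13 rose in antibody mice against each of the other groups, among them Ckm, Tnnt3 and Myh1, and the exception was Pvalb, which neurons also express. The summed level of all 14, Pvalb included, was 64.3 to 92.0 CPM in uninjured, 79.0 to 107 CPM in injured and 195 to 278 CPM in antibody libraries. No muscle marker was at 0 in an antibody library while up to 2 were at 0 in the others. The median log2 fold change of the 14 was 4.41 against uninjured and 3.79 against injured mice. The part of Pvalb in the sum is not given here, so the sum is not a level of muscle RNA alone. All 5 red blood cell markers and 5 of 6 fibroblast markers also rose against uninjured mice. The red cell sum was 35.3 to 48.9 CPM in uninjured, 45.5 to 52.2 CPM in injured and 145 to 272 CPM in antibody libraries, and the fibroblast sum was 107 to 117, 125 to 141 and 402 to 450.1 CPM. Of 7 microglia and macrophage markers 2 rose against uninjured and 3 against injured mice, with sums of 291 to 305 CPM in uninjured, 350.2 to 376 CPM in injured and 443 to 537 CPM in antibody libraries. Of 5 brown adipocyte markers, Ucp1, Adipoq and Plin1 did not pass the filter on low counts and Cidea was not called. Fabp4 rose by 2.18 on the log2 scale against uninjured (adjusted p = 0.00406) and by 2.29 against injured mice (adjusted p = 0.00218, edgeR). The brown adipocyte sums were 2.08 to 3.09, 3.01 to 3.86 and 2.64 to 4.84 CPM, and up to 3 of these markers were at 0 in a library. The part of these cells in the values of Cox8b, Cox7a1 and the other genes was not tested.

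The promoters of both muscle forms and of 1 widely expressed form are shown because Cox7a1 and Cox8b rose together and Cox6a1 did not pass. Each line gives the 250 bases upstream of the RefSeq start (GRCm38.p6), 5′ to 3′ on the gene's strand, at chr7:30183921-30184170 (plus strand) for Cox7a1, chr7:140900447-140900696 (minus strand) for Cox8b and chr5:115348959-115349208 (minus strand) for Cox6a1. Capitals mark the motifs found.
Cox7a1: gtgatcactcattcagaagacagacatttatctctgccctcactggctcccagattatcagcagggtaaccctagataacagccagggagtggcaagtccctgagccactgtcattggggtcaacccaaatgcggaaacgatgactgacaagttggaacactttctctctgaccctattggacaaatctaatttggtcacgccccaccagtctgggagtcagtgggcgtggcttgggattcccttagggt
Cox8b: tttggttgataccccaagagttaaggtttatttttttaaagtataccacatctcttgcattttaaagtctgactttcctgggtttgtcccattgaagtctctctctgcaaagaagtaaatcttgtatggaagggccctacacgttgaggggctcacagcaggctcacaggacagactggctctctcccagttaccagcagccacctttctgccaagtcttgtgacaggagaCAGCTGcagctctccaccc
Cox6a1: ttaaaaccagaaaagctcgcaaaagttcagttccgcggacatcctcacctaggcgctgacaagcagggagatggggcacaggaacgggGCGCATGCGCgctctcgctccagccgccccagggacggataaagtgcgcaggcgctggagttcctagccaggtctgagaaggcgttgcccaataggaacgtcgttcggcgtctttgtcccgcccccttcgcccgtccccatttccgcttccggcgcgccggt
The search covered both strands for the NRF1 motif (the capitals of the Cox6a1 line), the ETS motif CCGGAAGT and the YY1 motif AAGATGGC. It also covered the E-box CAGCTG and a loose MEF2 pattern (CTA and TAG around 4 bases of any kind). Because those 4 bases were left free, a match to this pattern need not be a MEF2 site. The motifs were chosen after the results were known, and the E-box with the Cox8b sequence in view. Of the 65 nuclear genes with a promoter in the table, the NRF1 motif was in 6.15% (4 genes: Atp5g2, Atp5k, Cox6a1 and Ndufa11) and in 0.781% of all 27025 promoters. The ETS motif was in 4.62% against 2.93% and the YY1 motif in 0 of 65 against 1.59%. The loose MEF2 pattern was in 1.54% against 3.23%, and the E-box in 9.23% against 12.8%. Cox8b held the E-box and Cox7a1 none of the 5. A match is a description of the letters only.

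Ndufv2, an iron-sulfur subunit of the NADH-oxidising arm of complex I, was at 130, 157, 168 and 155 CPM in uninjured, 140, 163, 143 and 115 CPM in injured, and 219, 211, 162 and 295 CPM in antibody libraries. Antibody replicate 3 overlapped the other groups. It rose by 0.54 (SE 0.155, adjusted p = 0.0449) against uninjured and by 0.66 (SE 0.155, adjusted p = 0.0103) against injured mice, by edgeR. Against uninjured mice the call was lost without any 1 of the 4 uninjured libraries, injured replicates 1 or 3, or antibody replicates 1, 2 or 4 (log2 fold changes from 0.37 to 0.59, adjusted p from 0.0557 to 0.132, edgeR). Against injured mice Uqcrb, a small subunit of complex III, rose by 0.64, Cox7b of complex IV by 0.62, Atp5mpl, a small proteolipid of the ATP synthase, by 0.54, and Atp5s by 0.43 (adjusted p = 0.0214, 0.0184, 0.0484 and 0.0044, edgeR). Without injured replicate 4 Uqcrb (0.53, adjusted p = 0.063) and Cox7b (0.62, adjusted p = 0.0513) were no longer called. Atp5mpl was no longer called without any 1 of uninjured replicates 2, 3 or 4, injured replicates 1, 3 or 4, or antibody replicates 1, 2 or 4 (adjusted p from 0.0523 to 0.123, edgeR). Without antibody replicate 3, which was the lowest antibody library for most of these genes, 47 nuclear genes were called higher against uninjured and 21 against injured mice, beside 13.8 and 13.2% of all tested genes, and Cox7b was among those against uninjured mice (0.64, adjusted p = 0.00491, edgeR). Without injured replicate 4, 4 nuclear genes were called higher against injured mice, beside 7.08% of all tested genes.

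Other genes of mitochondrial energy metabolism, from lists of the pathway, were measured in the same fit. The values of this paragraph are for injured against uninjured mice. Of 18 tested genes of glycolysis, the cytosolic route to pyruvate, 6 rose and none fell, among them Pkm (0.28, SE 0.0803) and Pfkl (0.33, SE 0.0923), against 23% of all tested genes called. Of 17 genes of the tricarboxylic acid cycle and pyruvate dehydrogenase, 5 fell and 1 rose, among them Dlat (-0.31, SE 0.0585), the acetyltransferase of pyruvate dehydrogenase, and Idh3a (-0.18, SE 0.0539). Of 17 genes that process or stabilise mitochondrial RNA, 3 fell and 1 rose, with Trmt10c, a subunit of mitochondrial RNase P, at -0.37 (SE 0.0927) and the poly(A) polymerase Mtpap at -0.31 (SE 0.0801). Of 13 genes of mitochondrial transcription and replication only Polrmt, the mitochondrial RNA polymerase, passed (0.26, SE 0.0754), and of 9 regulators of biogenesis Esrra (0.46, SE 0.108) and Nrf1 (0.28, SE 0.0716) rose. Of 13 genes of import and outer membrane, 2 fell and 1 rose, with Tomm70a at -0.57 (SE 0.108) and Tomm20 at -0.30 (SE 0.0626), both import receptors. The shares called were 33.3% for glycolysis, 35.3% for the tricarboxylic acid cycle and 7.69% for transcription and replication. They were 23.5% for RNA processing, 23.1% for import and 22.2% for biogenesis regulators, near the 23% of all tested genes (11.9% higher and 11% lower).

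Of the assembly factors after injury, Ndufaf4 of complex I fell by 0.36 (1 of 14), Sdhaf3 of complex II by 0.37 (1 of 4), and of 27 factors of complexes III, IV and V 3 fell and 1 rose, with Coa5 at -0.42 and Cox11, a copper chaperone of complex IV, at -0.35. None of 10 tested electron carrier genes passed. The shares called were 7.14% for complex I assembly, 25% for complex II and 14.8% for complexes III, IV and V, beside 23% of all tested genes. With the trend of G and C content and length removed, the calls were 1 higher and 1 lower for glycolysis, 0 and 2 for the tricarboxylic acid cycle, 0 and 0 for RNA processing, 0 and 3 for import and 3 and 0 for biogenesis regulators. They were 3 higher and 2 lower for the factors of complexes III, IV and V, and none for those of complexes I and II, for electron carriers and for transcription and replication. The shares of all tested genes were then 6.61% higher and 7.23% lower.

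Between antibody and injured mice, which share the injured libraries with the previous comparison, glycolysis had 5 of 18 genes lower and none higher, among them Hk1 (-0.38, SE 0.0561) and Pfkm (-0.32, SE 0.0652), kinases of the early steps. RNA processing had 4 higher and 2 lower of 17, with Trmt10c at 0.49 (SE 0.0927) and Tbrg4 at -0.35 (SE 0.065). Import had 3 higher of 13 (Tomm20 0.28, Vdac3 0.35), and the tricarboxylic acid cycle 3 higher and 1 lower of 17 (Dlat 0.28, Dld 0.33). Mterf3, a regulator of mitochondrial transcription, rose by 0.50 (SE 0.106) and Polrmt fell by 0.28 (SE 0.0758). Cycs, cytochrome c, which carries electrons from complex III to complex IV, rose by 0.91 (SE 0.191, adjusted p = 0.00545, edgeR), the 1 call among 10 electron carrier genes. Among assembly factors Ndufaf4, Tmem126b, Sdhaf3, Cox11, Lyrm7 and Coa5 rose, by 0.27 to 0.51. Of all tested genes 10.9% were called higher and 10.7% lower. With the trend of G and C content and length removed, the calls in this comparison were 1 higher and 3 lower for glycolysis, 2 and 1 for RNA processing, 2 and 1 for import, 1 and 1 for the tricarboxylic acid cycle, 1 and 0 for transcription and replication, 1 and 0 for electron carriers and 2 and 2 for biogenesis regulators. Assembly factors then had 2 higher and 3 lower for complexes III, IV and V and none for complexes I and II. The shares of all tested genes were then 10.9% higher and 7.14% lower. Against uninjured mice the antibody group had 4 calls in these lists, namely Ndufaf6 (0.46), Hk2 (0.38), Hsd17b10 (0.55) and Hk1 (-0.20). Among all tested genes 6.3% were called higher and 3.22% lower in that comparison.

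Markers of brain regions also differed between the groups of libraries. The shares called among all tested genes were 11.9% higher and 11% lower after injury, and 6.3% and 3.22% in antibody against uninjured mice. After injury 5 of 8 thalamus markers rose and 4 of 8 striatum markers fell, with summed levels of 158 to 202 CPM in uninjured and 214 to 244 CPM in injured libraries for thalamus, and of 1172 to 1359 and 1021 to 1103 CPM for striatum. In antibody libraries the sums were 229 to 264 CPM and 1073 to 1317 CPM, and 6 of 8 thalamus markers and 0 of 8 striatum markers passed against uninjured mice. Neuron markers had 3 higher and 4 lower of 10 after injury, with sums of 7359 to 7844 CPM in uninjured, 6401 to 7013 CPM in injured and 6293 to 7023 CPM in antibody libraries. Of 7 microglia and macrophage markers 3 rose and 1 fell after injury, with the sums given above. Of 6 astrocyte markers 2 rose and none fell, and of 6 fibroblast markers 3 rose and none fell. Of 6 oligodendrocyte markers 2 fell, with sums of 6906 to 7388 CPM in uninjured, 6417 to 6856 CPM in injured and 6391 to 7349 CPM in antibody libraries. Of 5 endothelial markers 1 rose and 1 fell, with sums of 235 to 243, 217 to 230.0 and 231 to 252 CPM in the same order. Between antibody and injured mice 4 of 8 striatum markers rose and none fell, and of 8 thalamus markers 1 rose and 1 fell. In that comparison 2 of 10 neuron markers rose and 5 fell, and of 6 oligodendrocyte markers 1 rose and 1 fell. No endothelial or astrocyte marker was called. Of all tested genes 10.9% were called higher and 10.7% lower there. No marker of the thalamus, striatum, neuron, microglia and macrophage, oligodendrocyte and endothelial lists was at 0 in any library. The part of all these markers in the respiratory chain values was not tested.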

How the data were processed

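RNA was measured in 12 libraries, 1 per mouse and 4 per group, and GEO's labels call them biological replicates. Per the submitters' processing notes the data were processed with CASAVA 1.8.2, FastQC 0.11.8 and Trimmomatic 0.39 on GRCm38; aligner, counting program and strand use were not given in the sources used here. For each gene the authors deposited, per the file headers, counts of total and unique exon, gene, intron and exon-exon reads, with TPM and RPKM; RPKM was not used. Deposited gene positions matched GENCODE M21 for all 25749 genes.

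Total exon reads of the 12 libraries were fitted in 1 model with edgeR 4.0.16 (TMM scaling, filterByExpr by group with a minimum count of 10, quasi-likelihood test, 9 residual degrees of freedom), with Benjamini-Hochberg adjustment over 14771 genes and a threshold of 0.05. The fit was tested on simulated data. CPM use the normalised library sizes and TPM are the deposited values. Levels of single genes were ranked against each other on TPM alone. The shares and ratios of MT-encoded and nuclear reads take no account of transcript length, and neither do the CPM of the paired complex IV forms. Depth was 13330379 to 16121577 exon reads per library, and the number of libraries rather than counting error limits the precision of all but the genes at a few CPM.

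The genes and lists were chosen with earlier results of these data known. The MT-encoded genes were all described, and in each comparison the nuclear genes named were at most 8 of those called, by adjusted p, with the subunits of complex II, the genes that have tissue-type forms and, of each pathway list, the 2 called genes of smallest p. Atp5b, Coa5 beside antibody treatment, the genes without overlap, those named for few unique reads and those of the motif search were named after their values were seen. Alternatives were other scalings, filters and tests (limma 3.58.1 voom, DESeq2 1.42.0), the compared groups alone, unique reads, a replicate block, removal of a trend with G and C content and exon length (mgcv 1.9.3), and leaving out each library. R 4.3.3, Python 3.11.15, numpy 2.4.6, pandas 2.3.3, scipy 1.17.1 and matplotlib 3.10.9 were used. Promoter sequences are from RefSeq.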

Additional observations from a re-analysis of the deposited data

Results flagged for a closer look

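In 5 of 117 groups of 4 libraries, 1 library stood further from its nearest neighbour than Dixon's 95% critical value for that share of the group's range allows, and chance gives about 1 in 20. mt-Nd4l was high in uninjured replicate 1 (1080 CPM, next 643) and in injured replicate 1 (410 CPM, next 257). mt-Nd1 was low in uninjured replicate 4 (7620 CPM, next 8699). mt-Nd4 was low in antibody replicate 4 (4960 CPM, next 7270). Cox7b2 was high in uninjured replicate 3 (1.14 CPM, next 0.471). Uninjured replicate 1 had the highest level of 7 of the 13 MT-encoded genes, and injured replicate 4 the lowest of 11.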

How the results depend on the processing

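Each count was recomputed under 24 settings. Leaving out uninjured 1, injured 4 and antibody 4 together was an alternative chosen after seeing the data. Causes of the changes were not tested. For most settings the share of all tested genes called in the same direction is not given here. The counts of MT-encoded and nuclear genes below therefore show only how the calls moved, and are not set against all genes. Genes called between injured and uninjured mice numbered 2045 with the G and C content and length trend removed, 1254 with the 3 libraries out, and 1385 to 4606 leaving out 1 library. Between antibody and uninjured mice they numbered 882 with only these groups, 895 with the replicate block, 2596 with the trend removed, 810 with the 3 libraries out and 853 to 3969 leaving out 1, and between antibody and injured mice 1890 to 3612. MT-encoded genes lower in injured than in uninjured mice numbered 10 to 13 leaving out 1 library. Those lower in antibody than in uninjured mice numbered 2 by DESeq2, 2 with the block, 9 with the trend removed and 0 to 2 leaving out 1 library, and those higher 2 with only these groups and 0 to 1. Those higher in antibody than in injured mice numbered 0 with the trend removed and 6 to 12 leaving out 1.

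Nuclear genes lower in injured than in uninjured mice numbered 2 by DESeq2, 2 on unique reads, 5 with the trend removed and 1 to 1 leaving out 1 library. Those higher numbered 10 with library size alone, 2 by DESeq2, 19 with only these groups, 4 on unique reads, 10 with the trend removed and 0 to 14. Against uninjured mice the antibody group had 14 lower with the trend removed, and 6 higher with library size alone, 8 by DESeq2, 1 with the block, 0 with the 3 libraries out and 1 to 47. Against injured mice it had 1 lower on unique reads, 21 with the trend removed and 0 to 2, and 12 higher by DESeq2, 4 with the 3 libraries out and 4 to 21.

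With the trend removed the sign turned for genes called in at least 1 of the fits. For injured against uninjured mice this was Cox8a (-0.24). For antibody against uninjured mice these were Sdhb (-0.14), Sdhd (-0.13), Cox6a1 (-0.22), Cox6b1 (-0.21), Cox7a2 (-0.21) and Cox8a (-0.35). For antibody against injured mice these were mt-Co1 (-0.0457), mt-Co2 (-0.0563), Uqcrb (-0.12), Cox7a2 (-0.17) and Ndufa4 (-0.36). Among 2328 values of single genes under the alternatives, 99 others changed sign without being called in either fit, none by more than 0.594 in size. The difference of the log2 ratio of MT-encoded to nuclear reads between injured and uninjured mice was -1.32 with the mean of log2(count + 1), and -1.13 to -0.82 leaving out 1 library.

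Replicate numbers did not pair the libraries: 2 of 12 same-numbered pairs had a correlation of deviations over 0.1 (-0.532 to 0.434), and 0 libraries correlated best with their own number. Under the replicate block 2543 genes were called between injured and uninjured and 2358 between antibody and injured mice, where 11 MT-encoded and 5 nuclear genes were higher. Cox8b and Ndufv2 against uninjured and Uqcrb and Atp5mpl against injured mice were not called under the block.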
